A study of Mus musculus with 6 samples.

Results

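The expression of 10 marker genes of the cells that wrap blood vessels was examined in the hearts of Mc4r KO and WT mice. The genes were taken by name from the deposited expression table, and all 10 were found among its 54532 genes. Acta2, Tagln, Myh11, Cnn1 and Mylk mark smooth muscle cells, and Rgs5, Abcc9, Cspg4, Notch3 and Vtn mark pericytes. They were read as an index of how much of each cell type a piece of heart contributed, because tissue composition can differ between mice without any change inside a cell.

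RNA-seq libraries were made from the hearts of mice aged 12 weeks. There were 3 homozygous Mc4r KO mice, from a purchased line that lacks the melanocortin-4 receptor, and 3 WT littermates, with 1 library per mouse, and all were on a C57B/6/N background and ate standard chow. The labels disagree on the tissue, which is heart in the source and tissue fields and muscle in the titles, and the study's discussion names left ventricle. The reads counted on genes ranged from 14691076 to 16047003 per library. Mc4r itself had 0 reads in 5 libraries and 2 reads in WT replicate 3, so its level in heart was too low to check the genotype. Mitochondrial transcripts made up 47.1 to 59.3% of the summed FPKM (reads on a gene divided by its length and by a scaling factor of the library) in WT and 43.0 to 46.6% in Mc4r KO.

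Smooth muscle cells form the wall of coronary arteries and arterioles and set their diameter by contracting. Contraction uses a dedicated set of proteins, and the genes for most of them are switched on together by serum response factor and its partner myocardin through a DNA element named the CArG box. Pericytes sit on capillaries, within the basement membrane of the endothelium, and contribute to capillary stability and blood flow. They carry little of the contractile set and are recognised instead by signalling, channel and matrix genes. In whole tissue, fewer cells of a type and less RNA per cell cannot be told apart.

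Acta2 encodes the smooth muscle actin that forms the thin filament, and the element that serum response factor binds lies just before its start. The RefSeq sequence of the 250 bases before the Acta2 start, chr19:34255374-34255623 on the minus strand of GRCm38.p6, is shown because Acta2 had the highest level of the smooth muscle markers and varied in step with Myh11. Cnn1, chr9:22099003-22099252 on the plus strand, is shown beside it because it had the widest range of the smooth muscle markers apart from Tagln, which was close to undetected. Capitals mark each CArG box, here read with at most 1 G or C within its A/T core.
Acta2: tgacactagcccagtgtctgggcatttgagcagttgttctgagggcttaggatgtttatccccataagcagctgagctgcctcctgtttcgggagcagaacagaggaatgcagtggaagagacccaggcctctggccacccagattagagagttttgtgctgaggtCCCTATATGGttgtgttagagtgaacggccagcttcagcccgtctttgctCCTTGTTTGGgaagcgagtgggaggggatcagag
Cnn1: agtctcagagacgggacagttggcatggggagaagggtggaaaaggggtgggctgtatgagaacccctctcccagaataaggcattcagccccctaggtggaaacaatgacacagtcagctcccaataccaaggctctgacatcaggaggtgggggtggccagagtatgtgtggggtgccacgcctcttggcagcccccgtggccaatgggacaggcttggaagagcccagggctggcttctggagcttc

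The Acta2 sequence held 2 such matches, which began 84 and 34 bases before the start. Of the 8 markers with a RefSeq promoter, Acta2 was the 1 marker with a match in this window. The search read both strands. Among 32851 mouse promoters of the same length, 8.59% held at least 1 such match and 0.670% held 2 or more. A CArG box with a core of A and T alone was in 1.47% of all promoters and in 0 of the 8. No match says only that these letters are not in this window. Promoters of Tagln and Myh11 were not analysed here.

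In Acta2, the thin filament actin on chromosome 19 (34241090 to 34255336, minus strand), the WT libraries had 35.0, 44.1 and 60.6 FPKM in replicates 1, 2 and 3. The Mc4r KO libraries had 79.4, 91.2 and 31.9 FPKM. KO replicates 1 and 2 stood above every WT library and KO replicate 3 stood below every WT library, so the groups overlapped at both ends. The mean was 46.6 ± 13.0 FPKM in WT and 67.5 ± 31.4 FPKM in Mc4r KO (SD, n = 3). The log2 fold change of FPKM + 0.1, Mc4r KO minus WT, was 0.43 with a 95% interval from -0.50 to 1.37, and limma's adjusted p over all 18035 genes tested was 0.570.

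Myh11, the smooth muscle myosin heavy chain that pulls on that filament, lies on chromosome 16 (14194535 to 14291372, minus strand). Its FPKM were 6.48, 8.85 and 10.5 in WT and 14.6, 15.8 and 6.05 in Mc4r KO. The 6 libraries fell in the same order for Myh11 as for Acta2, from KO replicate 3 at the bottom through WT replicates 1, 2 and 3 to KO replicates 1 and 2. The ratio of Acta2 to Myh11 FPKM stayed between 4.98 and 5.79 over the 6 libraries, a range of 1.16-fold, while Acta2 itself ranged 2.86-fold and Myh11 2.61-fold. The log2 difference of Myh11 between the groups was 0.40, with an interval from -0.47 to 1.26 and an adjusted p of 0.572 in limma.

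Cnn1 encodes calponin, which binds actin and restrains the myosin motor, and lies on chromosome 9 (22099216 to 22109630, plus strand). Its FPKM were 0.855, 1.27 and 1.87 in WT and 3.77, 4.50 and 1.05 in Mc4r KO. KO replicates 1 and 2 stood above every WT library here too, and KO replicate 3 lay between WT replicates 1 and 2. The values rest on 33 to 187 reads per library, and the exact Poisson 95% intervals were 22.7 to 46.3 reads in WT replicate 1 and 161 to 216 reads in KO replicate 2, for counting error only. The mean of Cnn1 was 1.33 ± 0.508 FPKM in WT and 3.10 ± 1.82 FPKM in Mc4r KO (SD, n = 3). Its log2 fold change was 0.99, the largest of the 10 genes on that scale, with an interval from -0.26 to 2.25 and a limma adjusted p of 0.338. The ratio of Cnn1 to Acta2 ranged from 0.0245 in WT replicate 1 to 0.0493 in KO replicate 2, so Cnn1 spread further than Acta2.

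Mylk encodes the kinase that phosphorylates the myosin light chain and so starts contraction, and lies on chromosome 16 (34745210 to 35002420, plus strand). Its FPKM were 2.90, 3.25 and 2.96 in WT and 4.62, 4.83 and 3.07 in Mc4r KO. KO replicates 1 and 2 were again the 2 highest libraries, but KO replicate 3 lay inside the narrow WT range. Between the groups Mylk differed by 0.42 on the log2 scale, with an interval from -0.005 to 0.85 and a limma adjusted p of 0.244.

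Tagln, which encodes the actin-binding protein transgelin and is normally abundant in smooth muscle, was barely counted. It lies on chromosome 9 (45929619 to 45936058, minus strand) and had 0.250, 0.315 and 0.118 FPKM in WT and 0.292, 0.364 and 0.0627 FPKM in Mc4r KO. These values rest on 2 to 11 reads per library, against 878 to 2467 reads for Acta2, so differences between the libraries were hardly detectable at this depth. For Tagln the log2 difference was -0.03 with an interval from -1.22 to 1.15. In the GENCODE M21 annotation, 67.9% of the 1988 exonic bases of Tagln were covered by exons of genes on the opposite strand. Gm48529, with 3 to 6 reads per library, covered 62.4% of the 1988 bases, and Pcsk7, with 259 to 409 reads, covered 5.43%. Whether the counting used strand is not given in the sources used here, and the effect of this overlap on the Tagln count was not tested. In Acta2, Myh11 and Cnn1 the same measure was 0%, and in Mylk it was 6.85%.

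**Figure D1:**
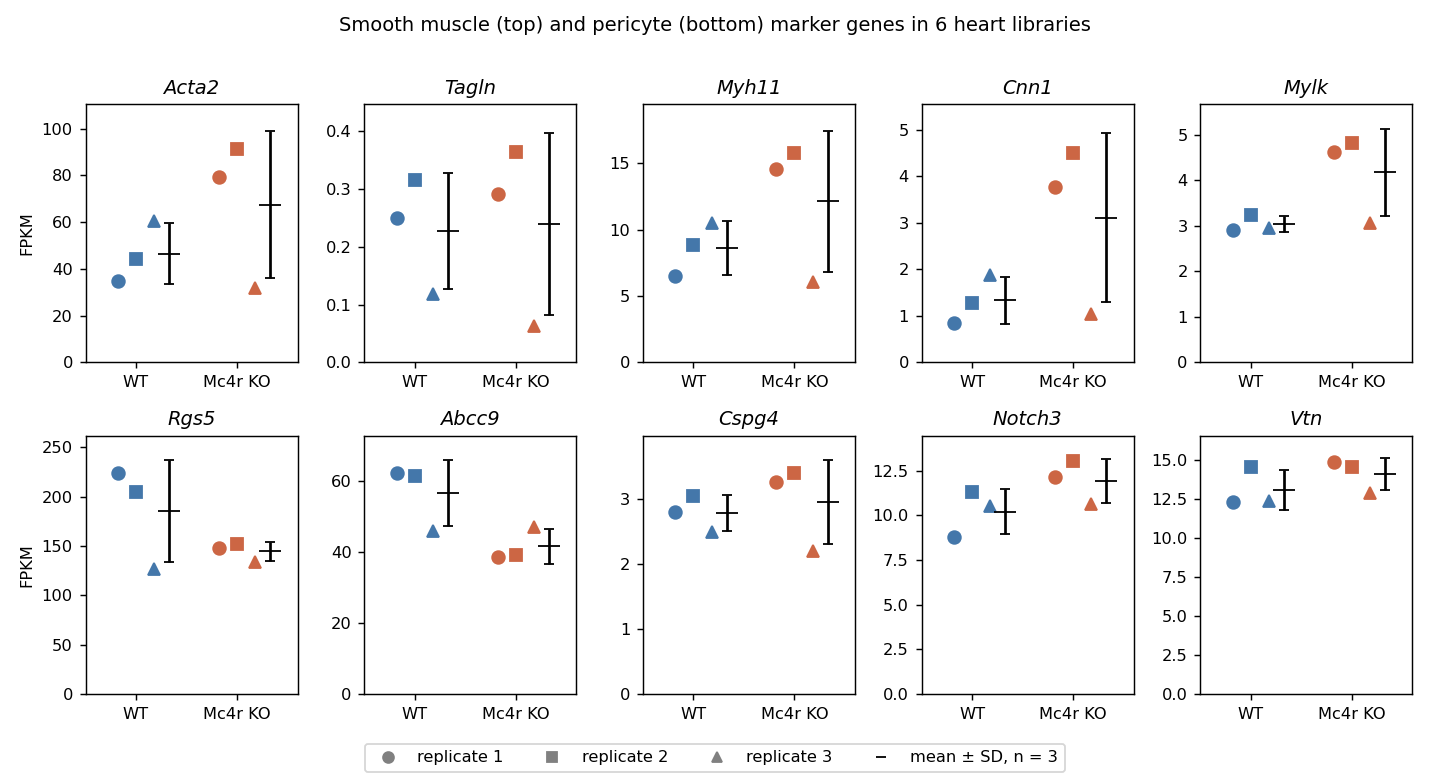
FPKM of the 5 smooth muscle markers (top row) and the 5 pericyte markers (bottom row) in each library, with the replicates as symbols and the mean ± SD (n = 3) as bars. In Acta2, Myh11, Cnn1 and Mylk the Mc4r KO replicates 1 and 2 stand above all WT libraries and replicate 3 does not, while Abcc9 is lowest in the same 2 KO libraries.

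Reads from near copies of a gene could also move between markers. Words of 50 bases shared with other genes made up 0.326% of the Acta2 transcripts and 0.340% of those of Myh11, and 0% of those of Cnn1, Rgs5, Cspg4 and Vtn. The cardiac actin Actc1 had 4568 to 8307 FPKM, far above Acta2, but was not among the genes that shared such words with it. Of 21 tested genes from the families of the markers, 0 were called between the genotypes, 3 did not overlap and were higher in Mc4r KO and 3 did not overlap and were lower, where the groups of 26.4% of all genes tested do not overlap. In Tagln the share was 58.3%, all with Gm48529 and Pcsk7, and it was 4.93% in Notch3, 4.56% in Mylk and 1.95% in Abcc9. Gm48529 and Pcsk7 are the genes that overlap Tagln on the opposite strand, so its share is not separate from that overlap. Notch3 shared words with Gm17276, which overlaps it on the opposite strand, and with Gm30232.

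Among the pericyte markers, Rgs5 and Abcc9 put the libraries in another order than Acta2, and Cspg4 and Notch3 shared its 2 highest libraries. Rgs5, a brake on G protein signalling and the most abundant of the 10 genes, lies on chromosome 1 (169655501 to 169695813, plus strand). Its FPKM were 224, 205 and 127 in WT and 148, 152 and 133 in Mc4r KO. WT replicates 1 and 2 stood well above the other 4 libraries, and WT replicate 3 was the lowest of all. The log2 difference was -0.32, with an interval from -0.81 to 0.17 and a limma adjusted p of 0.431.

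Abcc9 encodes the sulfonylurea receptor SUR2, the regulatory subunit of ATP-sensitive potassium channels, and heart muscle cells use it as well as pericytes. It lies on chromosome 6 (142587862 to 142702315, minus strand) and had 62.3, 61.4 and 45.8 FPKM in WT and 38.5, 39.0 and 47.1 FPKM in Mc4r KO. WT replicates 1 and 2 were again the highest, KO replicates 1 and 2 the lowest, and WT replicate 3 fell just under KO replicate 3, so the groups overlapped by that 1 pair. The mean was 56.5 ± 9.29 FPKM in WT and 41.5 ± 4.81 FPKM in Mc4r KO (SD, n = 3), a log2 difference of -0.44 with an interval from -0.78 to -0.09. The unadjusted p was 0.0192 in limma and the adjusted p 0.161. The libraries highest in Rgs5 and Abcc9, WT replicates 1 and 2, also had the highest mitochondrial share, 59.3 and 57.4%. With that share as a covariate, the log2 difference was 0.35 for Rgs5 and -0.12 for Abcc9, with limma adjusted p of 0.361 and 0.872. The share was lower in every Mc4r KO library than in every WT library, so this fit cannot tell it apart from genotype. Its part in these values was not tested.

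Cspg4 encodes NG2, the surface proteoglycan by which pericytes are often stained, and lies on chromosome 9 (56865033 to 56899870, plus strand). Its FPKM were 2.81, 3.05 and 2.50 in WT and 3.27, 3.40 and 2.21 in Mc4r KO. Like Acta2, it was highest in KO replicates 1 and 2 and lowest in KO replicate 3. The log2 difference was 0.06, with an interval from -0.37 to 0.50 and a limma adjusted p of 0.875, and it was -0.12 when libraries were scaled to the FPKM outside the mitochondrial chromosome.

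Notch3, the Notch receptor that mural cells use to read signals from the endothelium, lies on chromosome 17 (32120820 to 32166880, minus strand). Its FPKM were 8.81, 11.3 and 10.5 in WT and 12.1, 13.0 and 10.6 in Mc4r KO. KO replicates 1 and 2 were highest, but the whole range was 1.48-fold. For Notch3 the log2 difference was 0.23, with an interval from -0.07 to 0.52 and a limma adjusted p of 0.356.

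Vtn encodes vitronectin, an adhesive matrix protein that the liver secretes into plasma and that pericytes also transcribe, and lies on chromosome 11 (78499091 to 78502324, plus strand). It had 12.3, 14.5 and 12.4 FPKM in WT and 14.9, 14.5 and 12.9 FPKM in Mc4r KO, a range of 1.21-fold that was the narrowest of the 10 genes. The log2 difference was 0.11 with an interval from -0.14 to 0.36 and a limma adjusted p of 0.578, and it was -0.08 with the scaling outside the mitochondrial chromosome. The summed FPKM of 7 hepatocyte genes was 0.172 to 5.88 and did not follow Vtn, and 3 of them had 0 reads in every library.

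A gene was called different between the genotypes when its limma adjusted p was below 0.05 and its log2 fold change was beyond 0.75 in either direction. This rule called 0 of the 10 markers, beside 83 of 18035 genes or 0.46%, made up of 0.316% higher and 0.144% lower in Mc4r KO. At an unadjusted p under 0.05 it was 1 of 10, Abcc9, which was lower in Mc4r KO, beside 20.9% of all genes, with 12% higher and 8.83% lower. The count was also 0 of 10 with voom, limma's method for counts, on reads recovered from the FPKM. In 0 of 10 did the 3 WT and the 3 Mc4r KO libraries separate without overlap, beside 26.4% of all genes tested, 14.1% higher and 12.4% lower. The median log2 difference was 0.42 for the smooth muscle markers and 0.06 for the pericyte markers, beside -0.01 for all genes tested. The intervals of Cspg4, Notch3 and Vtn lay within 0.75 of 0 on the log2 scale, and those of the other 7 markers reached beyond it on at least 1 side, so for them 3 mice per group could not show whether a difference of that size was present.

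**Figure D2:**
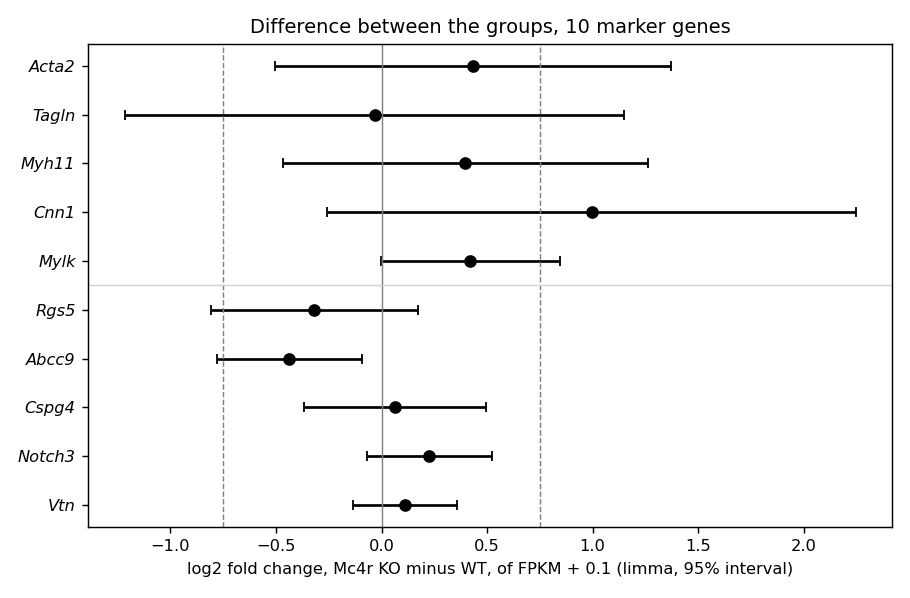
Log2 fold change of FPKM + 0.1, Mc4r KO minus WT, with limma's 95% interval for each of the 10 markers, smooth muscle above the line and pericyte below, and dashed lines at -0.75 and 0.75. The intervals of all markers but Abcc9 include 0, and those of Cnn1, Tagln, Acta2 and Myh11 are the widest.

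The size of the difference in the smooth muscle markers changed with the mice that were included. Without KO replicate 3, the log2 difference was 0.90 for Acta2, 0.83 for Myh11, 1.62 for Cnn1 and 0.62 for Mylk, with limma adjusted p from 0.210 to 0.251. Without KO replicate 2, the same 4 were 0.15, 0.15, 0.62 and 0.30. Without WT replicate 1 or without KO replicate 1, Acta2 was 0.25 in both, and Myh11 was 0.21 in both. Without WT replicate 3, Acta2 was 0.64 and Myh11 0.55. Rgs5 and Abcc9 moved most without WT replicate 3. The log2 difference was then -0.57 for Rgs5 with a limma adjusted p of 0.0286 and -0.58 for Abcc9 with an adjusted p of 0.0395. Both were short of the 0.75 limit on fold change. That fit called 3.5% of all genes by the limits on p and fold change together. The share of all genes under the limit on p alone was not counted. WT replicate 3 was also the library with the most atrial RNA, described below, and a link of that RNA to Rgs5 or Abcc9 was not tested. Without WT replicate 1 the difference of Rgs5 was -0.16.

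Acta2, Myh11 and Cnn1 spread more between mice of the same group than most genes did. The within-group SD of log2(FPKM + 0.1) was 0.646 for Acta2, 0.592 for Myh11 and 0.855 for Cnn1. Among 11297 genes with a mean of at least 1 FPKM, 3.76% had a larger SD than Acta2, 4.57% a larger SD than Myh11 and 2.22% a larger SD than Cnn1. Counting error was 2.01 to 3.37% of the Acta2 reads per library and 2.34 to 3.80% of the Myh11 reads, so it was small beside the 2.86-fold and 2.61-fold ranges. Mylk, at 0.254, was near Cspg4, also 0.254, and 24.3% of genes exceeded either. The pericyte markers Rgs5, Abcc9, Notch3 and Vtn had SDs of 0.320, 0.211, 0.167 and 0.124, and 70.2% of genes exceeded Vtn. The median SD was 0.646 over the smooth muscle markers, 0.211 over the pericyte markers and 0.165 over the 11297 genes.

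**Figure D3:**
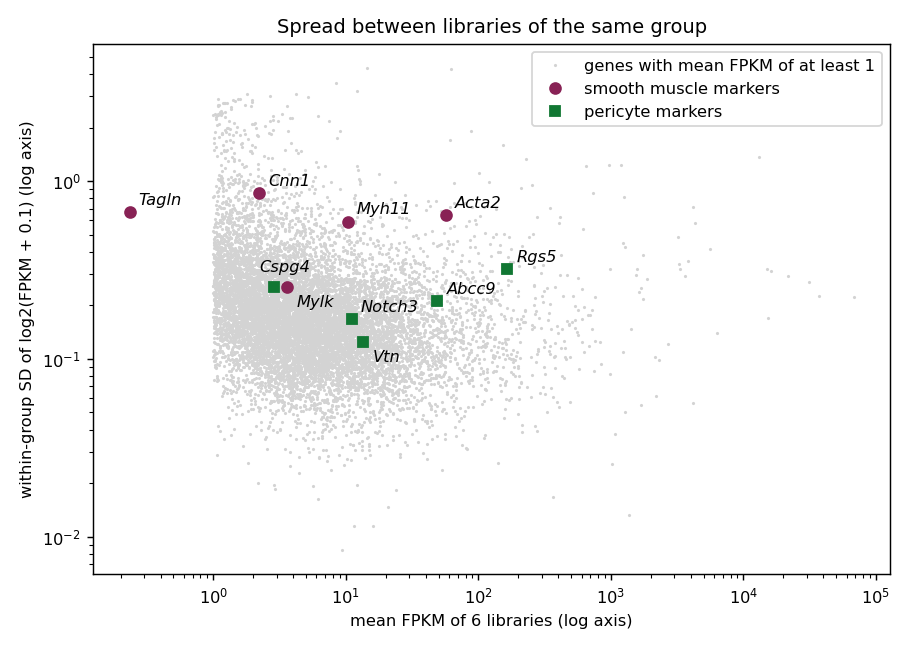
Within-group SD of log2(FPKM + 0.1) against mean FPKM, both on log axes, for 11297 genes with a mean of at least 1 FPKM (grey) and for the smooth muscle (circles) and pericyte (squares) markers. Acta2, Myh11 and Cnn1 lie along the upper edge of the cloud at their levels, while Abcc9, Notch3, Vtn, Cspg4 and Mylk lie inside it, and Tagln lies to the left at 0.234 FPKM.

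Other genes of the contractile set were followed in a list of 15. Of these, 0 were called between the genotypes, 5 had an unadjusted p under 0.05 in limma, all higher in Mc4r KO, and 3 did not overlap between the groups, also higher in Mc4r KO. Over all genes tested, 12% had such a p with a higher level in Mc4r KO and 14.1% did not overlap and were higher. The log2 difference was above 0 in 14 of the 15 and its median was 0.44, although Pcp4l1 and Synpo2, among those without overlap, are genes that heart muscle cells also express. Myl9, the smooth muscle regulatory light chain that Mylk phosphorylates, had 18.6, 19.2 and 44.4 FPKM in WT and 45.4, 54.3 and 20.1 FPKM in Mc4r KO. Pcp4l1 had 73.6, 67.0 and 102 FPKM in WT and 115, 128 and 128 FPKM in Mc4r KO. Smtn, which encodes smoothelin, ranged only from 25.6 to 31.4 FPKM.

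Tpm2, Lmod1 and Actg2 are named after their values were seen, because they followed the same libraries. Tpm2, a tropomyosin that lies along the thin filament, had 5.27, 6.82 and 10.3 FPKM in WT and 12.4, 12.2 and 6.60 FPKM in Mc4r KO. Lmod1, a leiomodin that starts actin filaments, had 1.24, 1.09 and 1.95 FPKM in WT and 2.68, 3.53 and 1.77 FPKM in Mc4r KO. Actg2, the enteric smooth muscle actin, had 0.501, 0.939 and 0.867 FPKM in WT and 2.23, 2.07 and 0.200 FPKM in Mc4r KO. In each of the 3, KO replicates 1 and 2 were the 2 highest libraries, as they were in Acta2, Myh11, Cnn1 and Mylk.

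**Figure D4:**
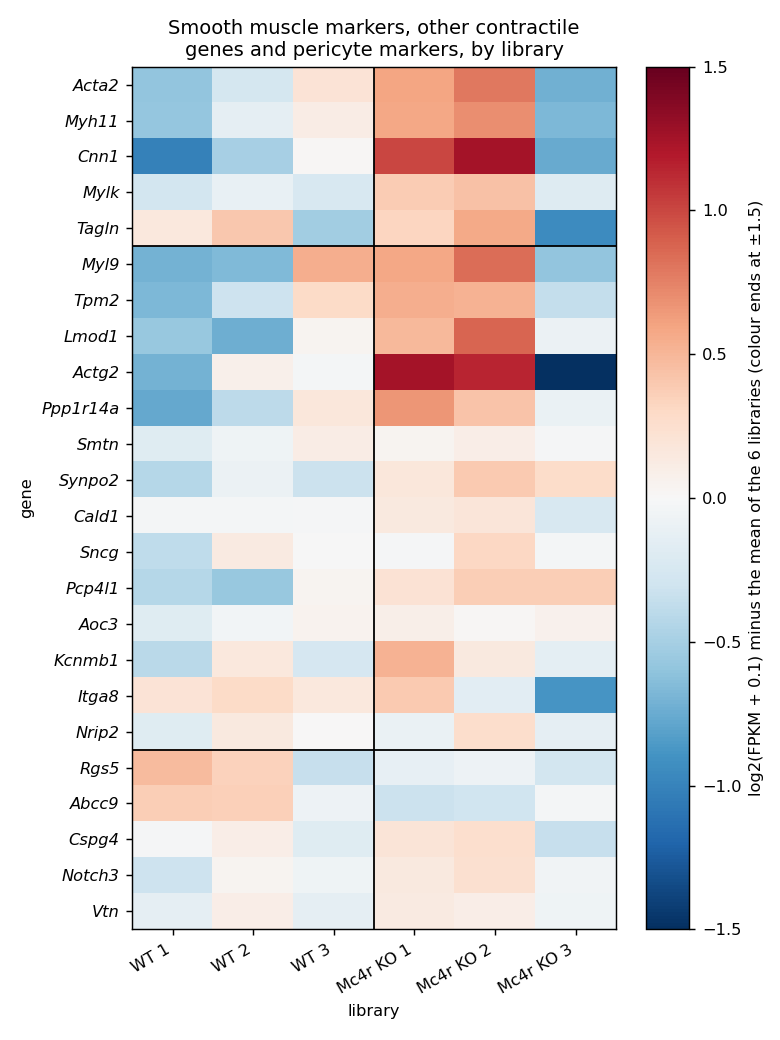
Log2(FPKM + 0.1) of each gene (rows) in each library (columns) minus that gene's mean over the 6 libraries, for the smooth muscle markers (top), other contractile genes (middle) and the pericyte markers (bottom), with colours ending at -1.5 and 1.5. Acta2, Myh11, Cnn1, Myl9, Tpm2 and Actg2 share high values in KO replicates 1 and 2 and low values in KO replicate 3, whereas Rgs5 and Abcc9 are highest in WT replicates 1 and 2.

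The factors that control the contractile genes were in a list of 13 found genes, 12 of them tested. Of these, 3 did not overlap and were higher in Mc4r KO and 1 did not overlap and was lower, beside 14.1% and 12.4% of all genes. Only 1 was called, beside 0.46% of all genes. It was Fhl2, a LIM domain partner of serum response factor that heart muscle also makes in large amounts. Fhl2 had 591, 604 and 549 FPKM in WT and 1017, 1185 and 1089 FPKM in Mc4r KO, with a log2 difference of 0.91 and a limma adjusted p of 0.0355. It was high in all 3 KO libraries, including replicate 3 where Acta2 was lowest. Srf, serum response factor, had 19.6, 24.6 and 27.7 FPKM in WT and 31.8, 44.0 and 33.1 FPKM in Mc4r KO, also without overlap, with a log2 difference of 0.60 and a limma adjusted p of 0.124. Myocd, which encodes myocardin, ranged from 6.26 to 7.50 FPKM with a log2 difference of 0.04. Csrp1 had 23.2, 27.1 and 28.2 FPKM in WT and 33.6, 31.3 and 18.0 FPKM in Mc4r KO, the same high and low KO libraries as Acta2.

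The RNA of genes that act in phosphorylation of the light chain was followed in 13 tested genes besides Mylk, and phosphorylation itself was not measured. Of these, 0 were called, 4 did not overlap and were higher in Mc4r KO and 2 did not overlap and were lower, beside 14.1% and 12.4% of all genes. Mylk3, the kinase that heart muscle uses in place of Mylk, had 145, 156 and 164 FPKM in WT and 119, 98.8 and 121 FPKM in Mc4r KO, a log2 difference of -0.46 with a limma adjusted p of 0.0944. Calm3, one of the genes for calmodulin, which activates Mylk, had a log2 difference of 0.37 without overlap and a limma adjusted p of 0.101, and Calm2 had a difference of -0.04.

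Other pericyte genes were followed in a list of 16, of which 0 were called, 3 did not overlap and were higher in Mc4r KO and 5 did not overlap and were lower, beside the same 14.1% and 12.4%, with a median log2 difference of -0.17. Kcnj8, the channel pore that pairs with Abcc9 in mural cells, ranged from 16.7 to 21.2 FPKM with a log2 difference of -0.04. Pdgfrb, the receptor through which pericytes are recruited, had 17.4, 20.2 and 15.2 FPKM in WT and 17.6, 16.7 and 14.8 FPKM in Mc4r KO. Art3, an ADP-ribosyltransferase relative on the cell surface, had 61.5 to 63.7 FPKM in WT and 76.7 to 97.1 FPKM in Mc4r KO, with a log2 difference of 0.43 and a limma adjusted p of 0.0983. The Notch and PDGF genes of mural recruitment, a list of 14, had 0 calls and 2 without overlap, 1 in each direction, beside 26.4% of all genes, and a median log2 difference of -0.06.

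Abcc9 was also set against the channel subunits it can join. Kcnj11, the pore that pairs with Abcc9 in heart muscle cells, had 32.1, 34.6 and 37.2 FPKM in WT and 40.1, 43.0 and 41.6 FPKM in Mc4r KO, with a log2 difference of 0.26 and a limma adjusted p of 0.151. The ratio of Abcc9 to Kcnj11 FPKM was 1.94, 1.77 and 1.23 in WT and 0.961, 0.908 and 1.13 in Mc4r KO. Every Mc4r KO library was below every WT library in this ratio, for which an exact permutation test of 3 against 3 cannot go below p = 0.1. The groups of 26.4% of single genes tested do not overlap, and the share among ratios was not counted. The ratio of Cnn1 to Acta2, given above, also separated the groups, with Mc4r KO higher. The ratio of Abcc9 to Kcnj8 ranged from 1.84 to 3.14 and overlapped between the groups. Abcc8, the sister regulatory subunit, had 2.78 to 4.57 FPKM, with overlap.

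Acta2 and Rgs5, the most abundant marker of each cell type, fell in different orders over the mice. The ratio of Acta2 to Rgs5 FPKM was 0.156, 0.215 and 0.478 in WT and 0.537, 0.599 and 0.239 in Mc4r KO, a range of 3.83-fold. It was lowest in WT replicate 1 and highest in KO replicate 2. Within the pericyte set, the ratio of Rgs5 to Abcc9 ranged from 2.77 to 3.90, that of Rgs5 to Pdgfrb from 8.34 to 12.9 and that of Notch3 to Vtn from 0.716 to 0.897. The summed FPKM of the 5 smooth muscle markers was 45.4, 57.8 and 76.1 in WT and 103, 117 and 42.1 in Mc4r KO, and that of the 5 pericyte markers was 310, 295 and 198 in WT and 217, 222 and 206 in Mc4r KO. Rgs5 makes up most of the pericyte sum. With each pericyte marker counted equally, the median log2 deviation from a marker's mean was -0.02, 0.10 and -0.13 in WT and 0.13, 0.10 and -0.07 in Mc4r KO, which puts KO replicate 1 highest.

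Markers of other cell types were summed in the same libraries. Atrial heart muscle genes varied most, with summed FPKM of 36.4, 107 and 807 in WT and 150, 13.1 and 56.7 in Mc4r KO, and Myl7, the atrial light chain, went from 0.240 to 307 FPKM. KO replicate 2 had the most Acta2 and the least summed atrial RNA, while WT replicate 3 had the most atrial RNA and a middle level of Acta2. The 12 endothelial markers summed to 371 to 456 FPKM in WT and 419 to 484 FPKM in Mc4r KO, with 0 called, 4 higher without overlap, beside 14.1% of all genes, and a median log2 difference of 0.18. KO replicates 1 and 2 were the highest 2 libraries in the endothelial sum too, at 484 and 481 FPKM. The part of endothelial content in the smooth muscle values was not tested.

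The 12 fibroblast markers had 0 calls, 3 lower without overlap, beside 12.4% of all genes, and a median log2 difference of -0.25, with sums of 649 to 898 FPKM in WT and 574 to 755 FPKM in Mc4r KO. The 12 heart muscle markers had 0 calls, 3 higher without overlap, beside 14.1% of all genes, and sums of 15435 to 16876 FPKM in WT and 18759 to 20495 FPKM in Mc4r KO. The 10 macrophage markers summed to 185 to 292 FPKM over both groups, the 9 skeletal muscle genes to 1.57 to 2.67 FPKM and the 6 Schwann cell genes to 3.77 to 6.53 FPKM. None of these sums put KO replicate 3 lowest and KO replicate 2 highest, as Acta2 and Myh11 did.

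**Figure D5:**
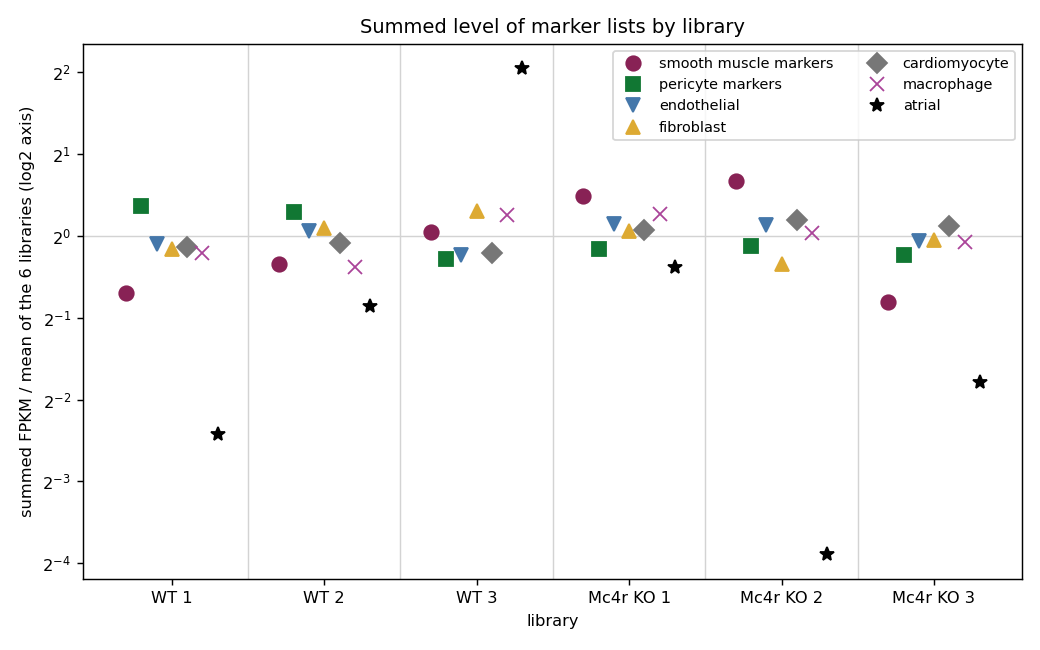
Summed FPKM of 7 marker lists in each library, divided by the mean of the 6 libraries and drawn on a log2 axis, with the libraries as columns and the lists as symbols. Smooth muscle markers are highest in KO replicates 1 and 2 and lowest in KO replicate 3, the pericyte sum, which is mostly Rgs5, is highest in WT replicates 1 and 2, and atrial markers peak in WT replicate 3.

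The genes most like the markers were searched among 11288 others with a mean of at least 1 FPKM, by Pearson's r over the 6 libraries with the mean standardized level of each marker group. With the smooth muscle markers they were Chchd1 (r = 0.980), Tcim (0.978), Mn1 (0.975), Bag5 (0.967) and Cptp (0.966). With the pericyte markers they were Arhgap31 (r = 0.988), Kctd5 (0.982), Elk3 (0.978) and Rpsa (0.970). These values are the highest of many over only 6 points that share depth and tissue, and they are a description. None of these genes is in the contractile list, and Chchd1 spanned 40.8 to 62.9 FPKM where Acta2 spanned 31.9 to 91.2 FPKM. The smooth muscle level used here weighs the 5 markers equally, Tagln with its 2 to 11 reads included. It was -0.17 in WT replicate 2 and -0.22 in WT replicate 3, an order that Tagln and Mylk have and Acta2 does not. The search therefore did not look for genes that follow Acta2 alone.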

How the data were processed

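The authors prepared libraries from polyadenylated heart RNA, aligned the read pairs to mm10 with HISAT2 (version 2.0.5 in the submitters' processing notes), counted reads on genes and deposited FPKM for each gene and library. Neither the release of the annotation nor the strand setting is given in the sources used here. Multiplied by gene length, 100% of the FPKM came to whole multiples (within 0.05) of a constant of their library, and these multiples were taken as the reads. The constants do not follow the depths alone, so the deposited FPKM were already scaled between libraries. A count of 3 reads on a gene of 1 kb corresponds to 0.176 to 0.213 FPKM. Intervals on reads are exact Poisson and cover counting error only.

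Genes with a mean of at least 0.1 FPKM were tested on log2(FPKM + 0.1) with limma 3.58.1 in R 4.3.3, using the empirical Bayes trend, all 6 libraries, no covariate and Benjamini-Hochberg adjustment over 18035 genes. All tests were two-sided. Fold changes on this scale understate changes of low genes. The script was tested on simulated data. Exon overlap and shared words of 50 bases came from GENCODE M21, and the Acta2 exons there sum to 2196 bases against 1781 in the table. Promoters came from RefSeq (GRCm38.p6), with 8 of 10 markers matched. Figures were drawn with matplotlib 3.10.9.

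The markers and lists were chosen with earlier results of these data known, so counts and medians of lists carry no test. From each other list, genes past the threshold and otherwise up to 3 of the highest mean FPKM are named, and genes outside this rule are marked. A few genes that the rule would name are not reported here. In the list of control factors, Mrtfa and Mrtfb were present under the names Mkl1 and Mkl2. Alternatives covered the pseudocount, the filter, the scaling, the variance model, the genes tested, the mitochondrial share, a replicate block, voom and leaving out each library.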

Additional observations from a re-analysis of the deposited data

How the results depend on the processing

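The count of markers called was 0 under each of 20 alternatives, although the calls over all genes went from 0 to 632. The median log2 difference of the 10 markers, 0.17, ranged from 0.10 to 0.37 on leaving out 1 library in turn and was -0.03 with scaling to the FPKM outside the mitochondrial chromosome. That scaling put the median of all genes at -0.19. Of 199 values of single markers 13 changed sign, all in Tagln, Vtn, Cspg4 and Rgs5, and the cause was not tested. Changing the filter, the genes tested, the variance trend, the robust setting or the replicate block leaves each log2 difference as it was. The signs under those alternatives were fixed in advance, so they do not show stability. Scaling by median ratios had the same factor, 1.01, in every library and left the values nearly unchanged. Tagln was 0.0090 with a pseudocount of 1, 0.011 after quantile normalization and 0.85 with the mitochondrial share as a covariate, and -0.33 to 0.43 on leaving out a library. Vtn was -0.0053 after quantile normalization and -0.084 with scaling outside the mitochondrial chromosome, where Cspg4 was -0.12. Cspg4 was -0.045 to 0.26 on leaving out a library, and Rgs5 was 0.35 with the mitochondrial share as a covariate. Acta2, Myh11, Cnn1, Mylk, Abcc9 and Notch3 kept their sign in every alternative run, with limma adjusted p from 0.251 to 0.966 for Acta2 and from 0.0395 to 0.872 for Abcc9. Tagln has no value with a filter of at least 1 FPKM.

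With the replicate number as a replicate block, 0 markers were called. The median stayed at 0.17, which this balanced design fixes in advance. Same-numbered WT and Mc4r KO libraries had deviations that correlated at -0.141, 0.00735 and -0.0818 across 11297 genes. Unlike-numbered libraries had correlations from -0.0321 to 0.115. With 3 libraries per group, these values cannot decide whether the numbers pair the mice. Precision is limited by 3 mice per group and, for Tagln, by 2 to 11 reads.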

Other observations

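Among the other mural cell genes, a few separated the genotypes more cleanly than the 10 markers. They were chosen after their values were seen, and 26.4% of all genes tested have groups that do not overlap. Ednra, the receptor through which endothelin constricts vessels, had 6.36, 6.09 and 5.07 FPKM in WT and 9.42, 9.18 and 9.93 FPKM in Mc4r KO, a log2 difference of 0.70 with a limma adjusted p of 0.0522. KO replicate 3, the lowest library in Acta2 and Myh11, was the highest in Ednra. Higd1b, a gene of the hypoxia-inducible domain family used as a pericyte marker, had 6.36, 8.14 and 6.93 FPKM in WT and 12.0, 11.8 and 10.1 FPKM in Mc4r KO, a log2 difference of 0.66 with a limma adjusted p of 0.0663. Ebf1, a transcription factor of pericytes and other stromal cells, lay the other way, with 2.83, 2.55 and 2.25 FPKM in WT and 1.91, 1.58 and 1.66 FPKM in Mc4r KO and a limma adjusted p of 0.108. Cox4i2, Anpep, P2ry14 and Steap4 were also lower in Mc4r KO without overlap, with limma adjusted p from 0.143 to 0.269. In this list of 16, 3 genes without overlap were higher in Mc4r KO and 5 were lower, beside 14.1% and 12.4% of all genes.

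In the Notch pathway that mural cells share with the endothelium, the endothelial receptor Notch4 had 6.30, 7.65 and 5.92 FPKM in WT and 10.8, 9.95 and 9.26 FPKM in Mc4r KO, with a limma adjusted p of 0.0766. Rbpj, the DNA-binding partner of all Notch receptors, had 3.65, 3.27 and 2.95 FPKM in WT and 2.32, 2.08 and 2.30 FPKM in Mc4r KO, with a limma adjusted p of 0.0953. None of Ednra, Higd1b, Ebf1, Notch4 and Rbpj passed the threshold of 0.05.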
